A study of Homo sapiens with 12 samples.

Results

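The genes examined were 43 genes of DNA replication and cell division, out of 19775 genes measured on the arrays, and comprised 20 genes that act in S phase and 23 that act in mitosis. They were chosen by function from a fixed list of names, with earlier results of these data known. All 43 had at least 1 probe set that names them alone, for 88 probe sets in all (1 to 5 for each gene). RNA came from 2 human multiple myeloma cell lines, KMS-11 and KMS-34, and from their carfilzomib-resistant derivatives. KMS-11/Cfz and KMS-34/Cfz had been selected to grow in 12 nM carfilzomib, an inhibitor of the proteasome, and were harvested after 1 week without it, whereas parental KMS-11 and KMS-34 had never been selected in the drug. Each of the 4 groups was represented by 3 arrays, 12 arrays in all. Both lines carry the t(4;14) translocation, 1 derivative of each was examined, and nothing states whether the 3 replicates of a group were separate cultures, so that the p-values reflect no more than the spread among these arrays, which may be technical.

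The members follow the order of the cell cycle. Cyclin E, made from CCNE1 and CCNE2, drives cells into S phase together with the E2F transcription factors, which switch on the genes of the replication machinery. The MCM2 to MCM7 proteins form the ring of the replicative helicase, CDC6 loads it at origins, CDC45 and the GINS proteins activate it, the primase and polymerase alpha start each new strand, and TYMS, RRM1 and RRM2 supply nucleotides. Later, cyclins A and B with CDK1, and the kinases of the PLK1, Aurora and BUB families, bring the cell into mitosis, where kinesins and centromere proteins move the chromosomes. Myeloma is a tumor of plasma cells, and a proliferation signature built on such genes marks the more aggressive forms of the disease.

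The promoters of these genes are shown first, because the 2 groups of members differ in the letters that the cell cycle factors read. RefSeq sequences (GRCh38.p14) of 300 bases, 250 before and 50 after the transcription start, were found for 34 of the 43 members, 17 in each group. MCM4, MCM5, CCNE2, AURKA, TPX2, BIRC5, FOXM1, UBE2C and TTK were not matched. On both strands, 3 motifs were searched, the E2F element (TTTCCCGC, TTTCGCGC, TTTGCCGC or TTTGGCGC), the cell cycle homology region or CHR (TTTGAA or CTTGAA), and the CCAAT box. Matches of different motifs, and of an E2F element on opposite strands, can overlap. The E2F letters occurred in 11 of 17 S phase promoters (64.7%), 3 of 17 mitotic promoters (17.6%) and 3.33% of all 27305 promoters of this length. The CHR letters showed the opposite division, with 2 of 17 S phase promoters (11.8%), 13 of 17 mitotic promoters (76.5%) and 24.2% of all promoters. The other genes of the same pathways showed the same division, with E2F letters in 14 of 40 promoters of further replication genes (35%) and 4 of 53 of further mitotic genes (7.55%), and CHR letters in 4 of 40 (10%) and 34 of 53 (64.2%). CCAAT was frequent in both groups, in 12 of 17 S phase promoters (70.6%) and 15 of 17 mitotic promoters (88.2%), against 35.7% of all promoters. Such a match is a description of the letters and not evidence of a bound site.

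The promoters of 4 members that changed in KMS-34/Cfz cells are printed to show these letters, 200 bases each (170 before and 30 from the start), 5′ to 3′ on the strand of the gene. Capitals mark the matches, including those that read on the opposite strand (ATTGG for CCAAT). MCM6 and MCM7 are S phase genes, and BUB1 and CCNA2 are mitotic genes. All 4 lie on the minus strand.
MCM6 at chr2:135876414-135876613: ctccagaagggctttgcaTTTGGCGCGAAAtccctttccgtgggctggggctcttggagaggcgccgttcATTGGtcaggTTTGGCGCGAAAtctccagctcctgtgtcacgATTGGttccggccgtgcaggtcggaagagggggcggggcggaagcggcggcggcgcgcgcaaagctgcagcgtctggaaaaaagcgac
MCM7 at chr7:100101368-100101567: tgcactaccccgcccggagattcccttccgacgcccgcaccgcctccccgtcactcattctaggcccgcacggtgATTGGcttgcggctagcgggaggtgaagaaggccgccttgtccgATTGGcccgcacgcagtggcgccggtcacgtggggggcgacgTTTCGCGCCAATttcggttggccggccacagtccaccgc
BUB1 at chr2:110678034-110678233: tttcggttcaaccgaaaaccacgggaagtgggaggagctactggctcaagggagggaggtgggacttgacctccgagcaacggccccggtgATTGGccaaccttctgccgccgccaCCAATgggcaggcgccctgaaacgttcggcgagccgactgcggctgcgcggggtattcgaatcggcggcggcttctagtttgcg
CCNA2 at chr4:121823854-121824053: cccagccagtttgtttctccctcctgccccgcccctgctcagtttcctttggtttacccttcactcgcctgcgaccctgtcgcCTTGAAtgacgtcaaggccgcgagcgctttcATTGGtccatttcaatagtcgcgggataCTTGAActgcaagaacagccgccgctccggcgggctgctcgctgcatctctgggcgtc
In the MCM6 window the E2F letters matched 4 times, as 2 stretches that each read on both strands, and in the MCM7 window an E2F element ran into a CCAAT box at the start. CCNA2 held 2 CHR elements with a CCAAT box between them, and BUB1 held 2 CCAAT boxes and neither of the other motifs.

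The deposited log2 values are centred, probe set by probe set, over the 12 arrays, so a value tells how far an array lies from the others and gives no level. Neither levels of different genes nor the presence of plasma cell markers could be read from them. Arrays of the same group correlated at r = 0.759 to 0.949 over all probe sets, resistant and parental arrays of the same line at 0.711 to 0.904, and arrays of different lines at -0.255 to -0.124. KMS-34/Cfz replicate 1 lay farthest from its own group (mean r = 0.785). It was also below the mean of its group, by a median of 0.11 over the S phase genes and 0.08 over the mitotic genes on the log2 scale. The counts of calls for KMS-34/Cfz, over genes, are given with and without it. Because the array was low in these genes, leaving it out favors rises by arithmetic alone, and added rises are not separate support. Parental KMS-34 replicate 1 was low as well, by 0.06 in each group of genes, and was kept in these counts. Values of single probe sets, counts of separated arrays and medians of neighboring genes are given with all arrays only. Of the marker genes of other blood cells, 0 of 6 for T and NK cells changed in either derivative. Of 4 monocyte and 2 erythroid markers measured, 0 changed in KMS-11/Cfz. For the KMS-34 derivative, 1 of each fell (25% and 50%, against 4.69% of all genes). Of 8 plasma cell markers, 2 fell in the KMS-11 derivative (25%, against 1.94% of all genes). The KMS-34 derivative had 3 that fell (37.5%, against 4.69% of all genes). A part of these marker changes in the results below was not tested. In such bulk RNA, fewer cells in a phase of the cycle and less RNA per cell cannot be told apart.

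KMS-11/Cfz cells were compared with KMS-11 cells to ask whether the replication and mitosis genes changed with resistance in this line. None of the 43 passed the test in limma at an adjusted p of 0.05 over all genes. Zero members rose, against 1.63% of all genes, and 0 fell, against 1.94% of all genes. An unadjusted p under 0.05 in limma was found for 9 of the 43, beside 2652 of all 19775 genes. The log2 fold changes, KMS-11/Cfz over KMS-11, ran from -0.26 for CDC6 to 0.23 for CCNE1, with standard errors of 0.06 to 0.10, and the 95% interval of every one of the 43 lay within 0.5 of 0. The median was 0.08 for the S phase genes and -0.04 for the mitotic genes, beside 0.00 for all genes.

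The members that lay farthest from 0 in KMS-11/Cfz were nevertheless separated from the parental arrays. CDC6, the loader of the helicase, had centred log2 values of 0.06, -0.01 and -0.01 in KMS-11/Cfz, against 0.25, 0.34 and 0.22 in KMS-11 (log2 fold change -0.26, SE 0.07, adjusted p in limma = 0.083). RRM2, the regulated subunit of ribonucleotide reductase, had 0.31, 0.27 and 0.29 in KMS-11/Cfz, against 0.09, 0.14 and 0.05 in KMS-11 (0.20, SE 0.06, adjusted p in limma = 0.083). In both genes the groups did not overlap, and neither passed the threshold. Left out in turn, KMS-34/Cfz replicate 1, which adds only to the shared estimate of spread, brought CDC6 to an adjusted p of 0.014, RRM2 to 0.049 and CCNE1 to 0.047 in limma, and with the 6 arrays of the line fitted alone the same genes had 0.026, 0.042 and 0.020. KIF20A, a kinesin needed for cytokinesis, had -1.30, -1.22 and -1.12 in KMS-11/Cfz, against -1.07, -0.93 and -1.02 in KMS-11 (-0.21, SE 0.07, adjusted p in limma = 0.16).

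Over the 43 members, all 3 KMS-11/Cfz arrays lay above all 3 KMS-11 arrays for 10 (23.3%), against 13.1% of all genes, and below them for 10 (23.3%), against 13.7% of all genes. The S phase genes made up 9 of the 10 that lay above, MCM3, MCM7, PRIM1, RRM1, RRM2, CCNE1, CCNE2, E2F1 and E2F2, and AURKB was the remaining one. The mitotic genes made up 8 of the 10 that lay below, MKI67, CCNA2, BUB1B, PLK1, KIF11, KIF20A, CENPE and TTK, with CDC6 and FEN1 from S phase. All 4 genes of cyclin E and E2F lay above, at log2 fold changes of 0.23 for CCNE1, 0.21 for CCNE2, 0.12 for E2F1 and 0.07 for E2F2, none of which passed the test.

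**Figure D1:**
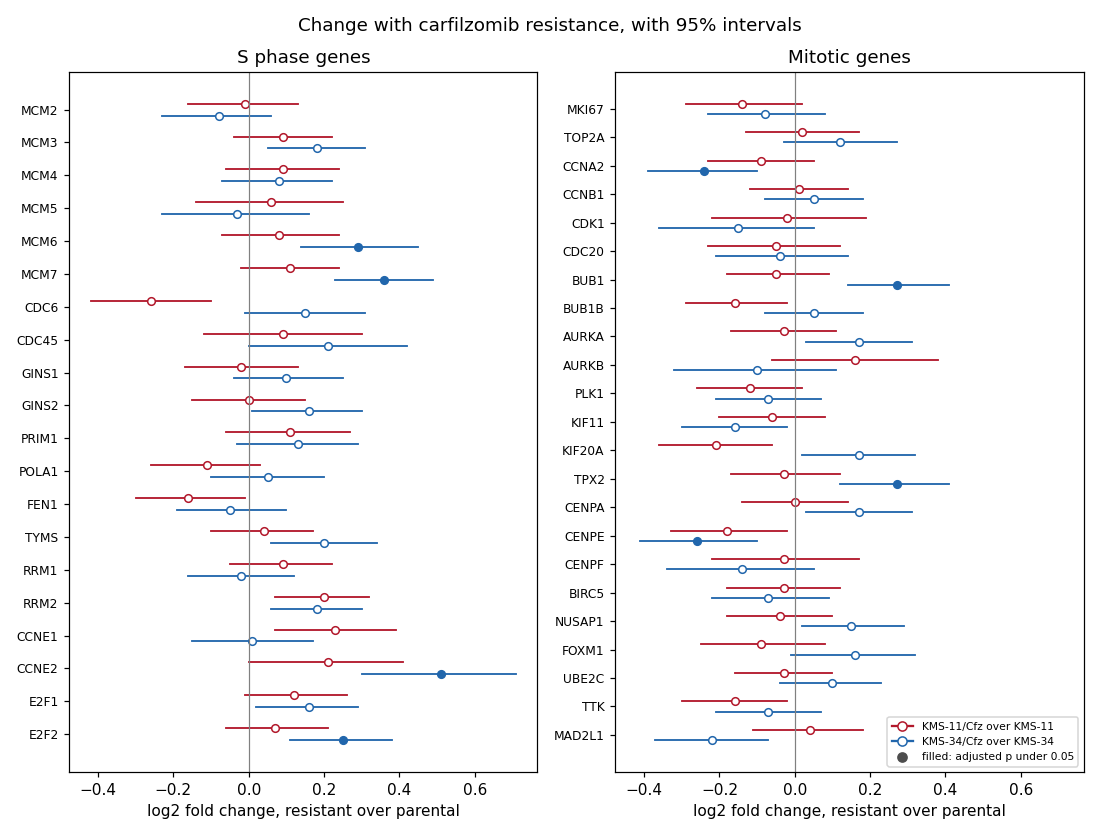
Log2 fold change (x axis) of each S phase gene (left) and mitotic gene (right), as KMS-11/Cfz over KMS-11 (red, upper line of each pair) and KMS-34/Cfz over KMS-34 (blue, lower line), with bars for 95% intervals from limma and filled points for an adjusted p under 0.05. Filled points appear only for KMS-34/Cfz, 6 to the right of 0 and 2 to the left, and the values of all members lie between -0.26 and 0.51.

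In KMS-34/Cfz cells, 8 of the 43 members passed the test against KMS-34 cells. Of these, 6 rose, against 5.4% of all genes, and 2 fell, against 4.69% of all genes. CCNE2, MCM7, MCM6 and E2F2 of the S phase genes rose, and 0 of the 20 fell. Of the 23 mitotic genes, BUB1 and TPX2 rose while CENPE and CCNA2 fell. The median log2 fold change was 0.15 for the S phase genes and -0.04 for the mitotic genes, beside -0.01 for all genes, and every called change was smaller than 1.5-fold.

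CCNE2, which encodes cyclin E2, rose in KMS-34/Cfz. Its centred log2 values were -0.74, -0.51 and -0.54 in KMS-34/Cfz, against -1.24, -0.88 and -1.21 in KMS-34. All resistant arrays were above all parental arrays, by 1.42-fold on average (log2 fold change 0.51, SE 0.09, adjusted p in limma = 0.0037). Its 2 probe sets gave 0.52 and 0.50. In KMS-11/Cfz the same gene stood at 1.78, 1.72 and 1.71, against 1.53, 1.61 and 1.45 in KMS-11, a separation of 0.21 (SE 0.09, adjusted p in limma = 0.37). Under cyclic loess scaling CCNE2 passed in both derivatives, with log2 fold changes of 0.33 in KMS-34/Cfz (adjusted p in limma = 0.0079) and 0.35 in KMS-11/Cfz (adjusted p in limma = 0.013).

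Of the helicase subunits, MCM7 and MCM6 rose. MCM7 had 0.67, 0.82 and 0.86 in KMS-34/Cfz, against 0.42, 0.43 and 0.41 in KMS-34, which was 1.29-fold higher (log2 fold change 0.36, SE 0.06, adjusted p in limma = 0.0018). MCM6 had 1.02, 1.13 and 1.04 in KMS-34/Cfz, against 0.79, 0.87 and 0.65 in KMS-34 (0.29, SE 0.07, adjusted p in limma = 0.018). Neither gene overlapped between the groups. The other subunits, which the same complex requires in equal number, did not pass, with log2 fold changes of 0.18 for MCM3 (adjusted p in limma = 0.082), 0.08 for MCM4, -0.03 for MCM5 and -0.08 for MCM2. The promoter of MCM3, like those of MCM6 and MCM7 above, holds both E2F and CCAAT letters, while that of MCM2 holds E2F letters without CCAAT. MCM4 and MCM5 had no promoter sequence. CDC6, GINS1, GINS2, POLA1 and E2F1 also hold both motifs and did not pass in KMS-34/Cfz. E2F2, which rose, holds E2F letters without CCAAT. A part of these letters in the changes was not tested.

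E2F2, a transcription factor of the activating E2F class, had 0.38, 0.53 and 0.55 in KMS-34/Cfz, against 0.20, 0.30 and 0.19 in KMS-34 (log2 fold change 0.25, SE 0.06, adjusted p in limma = 0.021). E2F1 gave 0.16 (adjusted p in limma = 0.17), and CCNE1 gave 0.01 (adjusted p in limma = 0.99). For nucleotide supply, TYMS, which makes thymidylate, gave 0.20 (adjusted p in limma = 0.065), RRM2 gave 0.18 (adjusted p in limma = 0.068) and RRM1 gave -0.02. The KMS-34/Cfz arrays of TYMS and RRM2 all lay above those of KMS-34. The remaining S phase genes, CDC6, CDC45, GINS1, GINS2, PRIM1, POLA1 and FEN1, lay between -0.05 (FEN1, the flap endonuclease) and 0.21 (CDC45) and did not pass.

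Of the mitotic kinases, BUB1, which acts in the spindle checkpoint, had 0.48, 0.50 and 0.67 in KMS-34/Cfz, against 0.30, 0.26 and 0.28 in KMS-34 (log2 fold change 0.27, SE 0.06, adjusted p in limma = 0.014). TPX2, which activates Aurora A on the spindle, had 0.07, 0.18 and 0.22 in KMS-34/Cfz, against -0.14, -0.10 and -0.08 in KMS-34 (0.27, SE 0.07, adjusted p in limma = 0.021). Both were separated on all arrays. CENPE, the kinesin of the kinetochore, fell, with -0.50, -0.25 and -0.33 in KMS-34/Cfz, against -0.10, -0.04 and -0.17 in KMS-34 (-0.26, SE 0.07, adjusted p in limma = 0.035). CCNA2, which encodes cyclin A2, also fell, with -0.56, -0.47 and -0.46 in KMS-34/Cfz, against -0.31, -0.13 and -0.32 in KMS-34 (-0.24, SE 0.07, adjusted p in limma = 0.030). The mitotic genes therefore changed in both directions within this line. MAD2L1, a checkpoint protein, gave -0.22 (adjusted p in limma = 0.058), and the markers most often used for proliferation gave -0.08 for MKI67, 0.12 for TOP2A and -0.07 for BIRC5.

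The other mitotic members did not pass the test in KMS-34/Cfz with the deposited scaling. The main cyclin B gene CCNB1 gave a log2 fold change of 0.05, its kinase CDK1 gave -0.15 (-0.25 under cyclic loess, adjusted p in limma = 0.019), and FOXM1, a transcription factor of late cell cycle genes, gave 0.16. The kinases AURKA, AURKB, PLK1, BUB1B and TTK ran from -0.10 (AURKB) to 0.17 (AURKA). CDC20 and UBE2C, which serve the anaphase-promoting complex, gave -0.04 and 0.10. The motor proteins KIF11 and KIF20A gave -0.16 and 0.17, the spindle protein NUSAP1 0.15, and the centromere proteins CENPA and CENPF 0.17 and -0.14.

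**Figure D2:**
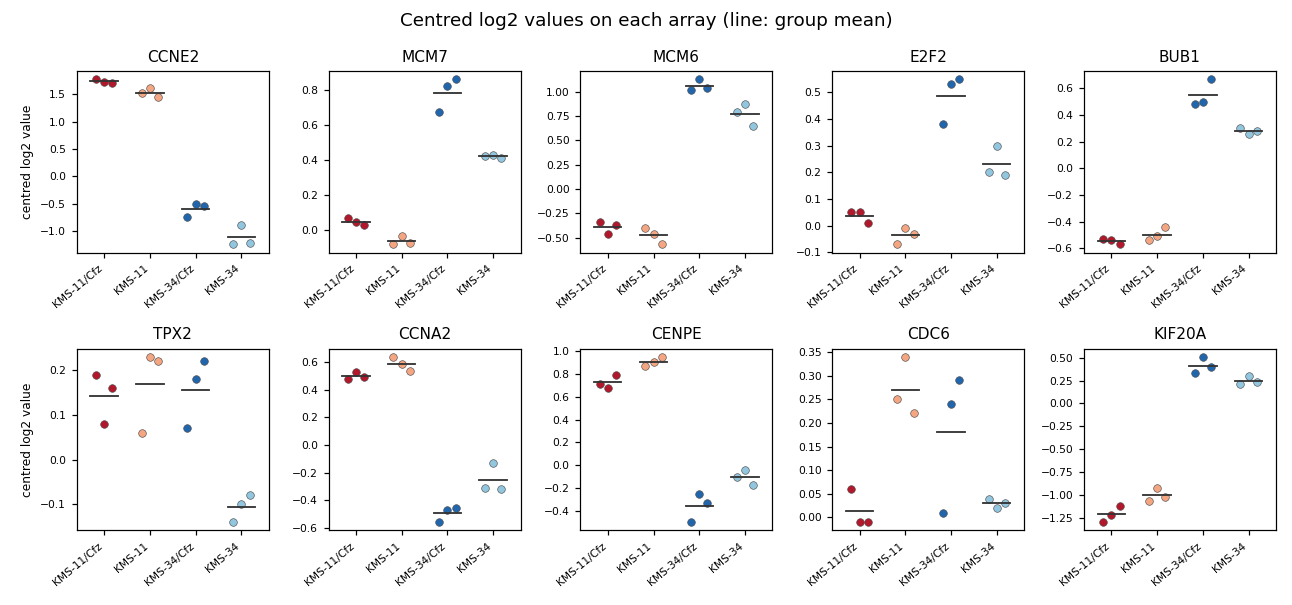
Centred log2 value (y axis, own scale in each panel) on each of the 3 arrays of KMS-11/Cfz, KMS-11, KMS-34/Cfz and KMS-34 for the 8 members called in KMS-34/Cfz and for CDC6 and KIF20A, with a line at the group mean. For the 8 called members the KMS-34/Cfz and KMS-34 points do not overlap, while in CDC6 the lowest KMS-34/Cfz array (0.01) sits below the KMS-34 arrays.

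Arrays that separated without overlap were counted as well. All KMS-34/Cfz arrays lay above all KMS-34 arrays for 14 of the 43 members (32.6%), against 10.2% of all genes, and below them for 4 (9.3%), against 10.5% of all genes. Of the 14, 8 were S phase genes, which had 0 members below, and the mitotic genes had 6 above and 4 below. The S phase genes averaged 0.115, 0.269 and 0.296 on the 3 KMS-34/Cfz arrays, against 0.029, 0.138 and 0.088 on the KMS-34 arrays, whereas the mitotic genes averaged -0.013, 0.093 and 0.132, against 0.014, 0.136 and 0.055. The lowest KMS-34/Cfz value in each group of genes came from replicate 1.

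Without KMS-34/Cfz replicate 1, 14 members rose and 1 fell, beside 8.62% and 5.08% of all genes. As this array was low in the members, its omission favors rises, and these counts are not separate support. The S phase genes that rose were then 10 of 20, adding CDC6, CDC45, MCM3, TYMS, RRM2 and E2F1, with a median log2 fold change of 0.20, and the mitotic genes that rose were 4 of 23, adding CENPA and NUSAP1. CENPE (-0.19, adjusted p in limma = 0.074) and CCNA2 (-0.21, adjusted p in limma = 0.058) no longer passed, and MAD2L1 fell (-0.24, adjusted p in limma = 0.047), as it also did without KMS-34 replicate 3 (-0.28, adjusted p in limma = 0.027). The calls for CCNE2, MCM7 and BUB1 held when any 1 of the 12 arrays was omitted, whereas those of the other 5 did not. The call for MCM6 was lost when KMS-34/Cfz replicate 2 was omitted, or replicate 3 of KMS-34 (log2 fold change 0.24 to 0.26, adjusted p in limma = 0.077 to 0.081). The one for TPX2 was lost on omitting replicate 2 or 3 of KMS-34/Cfz, or else replicate 1 of KMS-34 (0.23 to 0.26, adjusted p in limma = 0.069 to 0.074), and the one for E2F2 without any of these or KMS-34 replicate 3 (0.22 to 0.23, adjusted p in limma = 0.070 to 0.088). CCNA2 lost its call also when replicate 2 of either group was omitted (-0.26 to -0.18, adjusted p up to 0.10 in limma), and CENPE without 9 of the 12 arrays, the exceptions being KMS-34/Cfz replicate 2, KMS-11 replicate 3 and KMS-34 replicate 3 (-0.27 to -0.19, adjusted p in limma = 0.0501 to 0.11). Fitted on the 6 arrays of the line alone, CCNE2 and MCM7 passed and the other 6 had adjusted p-values of 0.11 to 0.20 in limma.

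Probe sets of the same gene were compared, because they read different stretches of the transcript and 26 of the 43 members have more than 1. In KMS-11/Cfz, 1 of the 88 probe sets passed the test over all probe sets, against 1.75% of all, and in KMS-34/Cfz 9 did, 8 up and 1 down, against 7.05% of all. The single call in KMS-11/Cfz was CCNE1 (213523_at), with 0.12, 0.06 and 0.08 in KMS-11/Cfz, against -0.48, -0.36 and -0.42 in KMS-11 (log2 fold change 0.51, SE 0.07, adjusted p in limma = 0.0017). The same probe set also rose in KMS-34/Cfz, with 0.63, 0.76 and 0.72, against 0.38, 0.45 and 0.46 in KMS-34 (0.27, SE 0.07, adjusted p in limma = 0.034). The other probe set of CCNE1 (242105_at) passed in neither derivative (-0.05 for KMS-11/Cfz, -0.26 for the KMS-34 derivative), so the gene mean of CCNE1 joins readings that disagree.

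MCM6 and E2F2 also differed by probe set in KMS-34/Cfz. For MCM6, 238977_at gave 0.46 (adjusted p in limma = 0.013) and 201930_at gave 0.13 (adjusted p in limma = 0.40), although both were above KMS-34 on all arrays. For E2F2, 207042_at gave 0.46 (adjusted p in limma = 0.015), 228361_at gave 0.18 and 235582_at gave 0.11. In contrast, the probe sets of MCM7 gave 0.37 and 0.36. Of the 5 probe sets of BUB1 only 209642_at passed (0.32, adjusted p in limma = 0.025), and the others ran from 0.19 to 0.33. With its probe set of largest variance in place of the mean, and adjusted over genes, BUB1 did not pass (0.22, adjusted p in limma = 0.20). The probe sets of CCNA2 gave -0.27 and -0.22 and did not pass (adjusted p in limma = 0.078 and 0.22). MAD2L1 had 1 of 3 probe sets past the threshold (1554768_a_at, -0.30, adjusted p in limma = 0.018), the others being at -0.22 and -0.13. The 4 probe sets of MKI67 lay between -0.12 and -0.02 in KMS-34/Cfz and between -0.35 and 0.01 in KMS-11/Cfz, with none past the threshold over all probe sets. With its probe set of largest variance in place of the mean, and adjusted over genes, MKI67 passed in KMS-11/Cfz (-0.35, adjusted p in limma = 0.045).

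**Figure D3:**
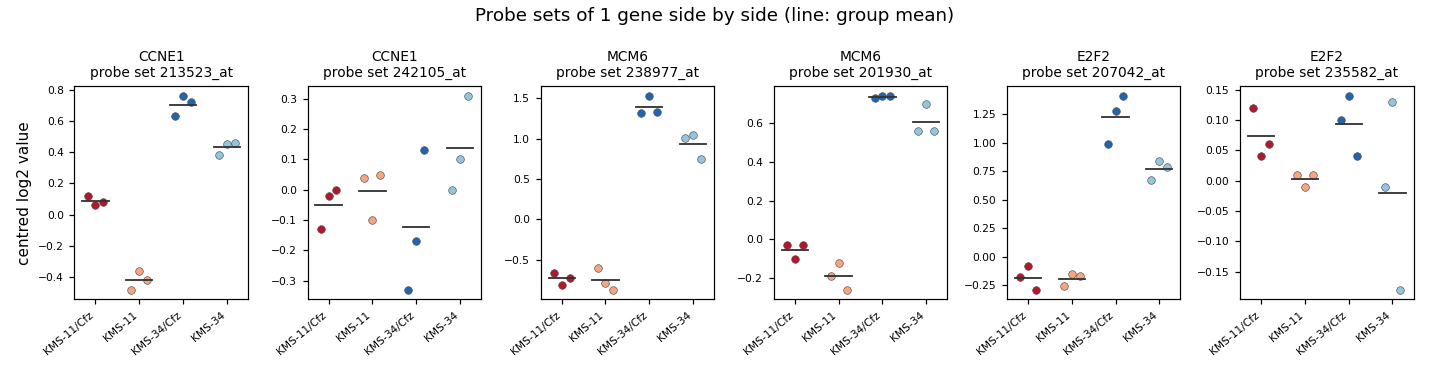
Centred log2 value (y axis, own scale in each panel) on each array for the probe sets of CCNE1, MCM6 and E2F2 with the highest (left of each pair) and lowest KMS-34/Cfz change, in KMS-11/Cfz, KMS-11, KMS-34/Cfz and KMS-34, with a line at the group mean. CCNE1 213523_at separates KMS-11/Cfz from KMS-11 by 0.51 on the log2 scale, whereas 242105_at of the same gene gives -0.05.

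The difference between the lines in their response was tested as an interaction, in which a positive value means a more positive change in KMS-34/Cfz than in KMS-11/Cfz. Of the 43 members, 2 were more positive in KMS-34/Cfz, against 3.7% of all genes, and 0 were more negative, against 2.74% of all genes. An unadjusted p under 0.05 in limma was found for 10 of the 43, beside 3710 of all 19775 genes. The 2 that passed were CDC6 (0.41, SE 0.10, adjusted p in limma = 0.034) and KIF20A (0.38, SE 0.10, adjusted p in limma = 0.039). Over single probe sets, 203968_s_at of CDC6 passed (0.50, adjusted p in limma = 0.034) and 203967_at did not (0.32, adjusted p in limma = 0.19). The only probe set of KIF20A did not pass (0.38, adjusted p in limma = 0.09). CDC6 had 0.01, 0.24 and 0.29 in KMS-34/Cfz, against 0.04, 0.02 and 0.03 in KMS-34, and KIF20A had 0.33, 0.51 and 0.40 in KMS-34/Cfz, against 0.21, 0.30 and 0.23 in KMS-34. Both genes stood below their parental arrays in KMS-11/Cfz, as given above. The call for CDC6 held only without KMS-34/Cfz replicate 1 and was lost without any other single array (0.35 to 0.43, adjusted p in limma = 0.0503 to 0.093). KIF20A lost its call without 9 of the 12 arrays, all but KMS-11/Cfz replicate 3, KMS-34/Cfz replicate 1 and KMS-34 replicate 2 (0.33 to 0.41, adjusted p in limma = 0.055 to 0.11). BUB1 lay just outside the threshold (0.32, SE 0.09, adjusted p in limma = 0.0501). For CCNE2 and MCM7, which passed in KMS-34/Cfz and not in KMS-11/Cfz, the difference between the lines did not pass with all arrays (CCNE2 0.30, 95% interval 0.01 to 0.59, adjusted p in limma = 0.24, and MCM7 0.25, 95% interval 0.07 to 0.44, adjusted p in limma = 0.11). It passed for CCNE2 without KMS-34 replicate 2 (0.42, adjusted p in limma = 0.041). Under cyclic loess scaling, by contrast, CCNE2 rose by similar amounts in both derivatives, as given above. Without KMS-34/Cfz replicate 1 the difference between the lines passed for MCM7 (0.31, adjusted p in limma = 0.018), BUB1 (0.35, adjusted p in limma = 0.023) and TPX2 (0.33, adjusted p in limma = 0.036).

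Averaged over both lines, 5 members rose, against 3.99% of all genes, and 2 fell, against 3.86% of all genes. All 5 that rose were S phase genes, CCNE2 (log2 fold change 0.36), MCM7 (0.24), MCM6 (0.19), RRM2 (0.19) and E2F2 (0.16), and both that fell were mitotic genes, CENPE (-0.22) and CCNA2 (-0.17). RRM2 passed here and in the contrast of neither line in the same fit, with changes of 0.20 for KMS-11/Cfz and 0.18 for the KMS-34 derivative (mean 0.19, adjusted p in limma = 0.011). The medians were 0.12 for the S phase genes, -0.04 for the mitotic genes and 0.00 for all genes. MCM6, E2F2 and CCNA2 lost this call without 8, 10 and 10 of the 12 arrays, one at a time, and CENPE without KMS-11/Cfz replicate 2 (-0.21, adjusted p in limma = 0.053). Without KMS-34/Cfz replicate 1, 10 members rose in the mean, all of them S phase genes, by the addition of MCM3, CDC45, TYMS, CCNE1 and E2F1. The share of all genes that rose in the mean without this array is not given. As the array was also low in the members, this gain cannot be read as a result about them.

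Other genes of the same pathways were counted beside the members. Of 45 further replication genes measured, the counts in KMS-11/Cfz were 2 up and 0 down (4.44% changed, against 3.57% of all genes), and those in KMS-34/Cfz were 7 up and 2 down (20%, against 10.1% of all genes). The share in KMS-11/Cfz was thus near that of all genes. RNASEH2A, a subunit of the ribonuclease that removes RNA from DNA, rose in both, with -0.45, -0.48 and -0.43 in KMS-11/Cfz, against -0.73, -0.69 and -0.81 in KMS-11 (0.29, adjusted p in limma = 0.046), and 0.55, 0.75 and 0.82 in KMS-34/Cfz, against 0.25, 0.37 and 0.27 in KMS-34 (0.41, adjusted p in limma = 0.0028). ORC3 of the origin recognition complex also rose in both, by 0.35 in KMS-11/Cfz (adjusted p in limma = 0.029) and by 0.27 in KMS-34/Cfz (adjusted p in limma = 0.049). CDT1, which loads the helicase together with CDC6, rose in KMS-34/Cfz (0.36, adjusted p in limma = 0.0013), as did the histone chaperone gene ASF1B (0.31), whereas DTL, part of the ubiquitin ligase that removes CDT1, fell (-0.30, adjusted p in limma = 0.0076).

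Of 60 further mitotic genes, 0 rose and 2 fell in KMS-11/Cfz (ARHGAP11A at -0.34, adjusted p in limma = 0.049, and OIP5 at -0.24, adjusted p in limma = 0.0497), and 5 rose and 1 fell in KMS-34/Cfz. These were 3.33% of the list in KMS-11/Cfz, against 3.57% of all genes, and 10% in KMS-34/Cfz, against 10.1% of all genes, so that the list did not stand apart from all genes in either count. ANLN, the actin-binding protein anillin of the cleavage furrow (0.43), and CDC25B, the phosphatase that activates cyclin-dependent kinases (0.42), rose in KMS-34/Cfz, SPC25 of the kinetochore rose by 0.30, and the kinesin KIF14 fell (-0.38). Of 17 regulators of the E2F, RB and DREAM complexes, 0 changed in KMS-11/Cfz. There, 6 of them had an unadjusted p under 0.05 in limma, beside 2652 of all 19775 genes. In KMS-34/Cfz 2 rose, RBL1 (0.33, adjusted p in limma = 0.010), which encodes the pocket protein p107, and MYBL2 (0.28, adjusted p in limma = 0.011), which encodes B-MYB. The regulators that changed in KMS-34/Cfz were 11.8% of their list, near the 10.1% of all genes. The medians in KMS-34/Cfz were 0.09 for the replication genes, 0.05 for the mitotic genes and 0.09 for the regulators. In a count chosen after seeing the data, KMS-34/Cfz replicate 1 was omitted. In KMS-34/Cfz, 10 replication genes then rose and 1 fell, 8 mitotic genes rose and 1 fell, and 3 regulators rose (24.4%, 15% and 17.6% changed, against 13.7% of all genes). In KMS-11/Cfz, 4 replication genes rose and 1 fell, 0 mitotic genes rose and 3 fell, and 1 regulator rose (11.1%, 5% and 5.88%, against 5.4% of all genes). Every gene named here for KMS-11/Cfz or KMS-34/Cfz passed in that count as well.

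The parental lines differed far more from each other than from their derivatives. Comparing KMS-34 with KMS-11, 18 of the 43 members were higher, against 21.6% of all genes, and 16 were lower, against 20.5% of all genes, so that 34 (79.1%) passed, beside 42.1% of all genes. The members were not alone in this. Of the further replication genes 51.1% passed, of the further mitotic genes 70%, and of the E2F, RB and DREAM regulators 76.5%. The median absolute log2 fold change was 0.47 for the members and 0.16 for all genes. Among the S phase genes 9 were higher and 7 lower in KMS-34, and among the mitotic genes 9 and 9, with medians of 0.05 and 0.07. Differences of this kind thus ran in both directions within each group of genes. Some gene means joined probe sets that disagreed. E2F2, counted as higher, had 0.96 on 207042_at, and -0.13 and -0.02 on its other probe sets. BIRC5, also counted as higher, joined 0.75 and 0.51 with 0.03 and -0.03. Probe sets passed in both directions for 0 members.

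CCNE2 was 6.22-fold lower in KMS-34, with -1.24, -0.88 and -1.21 in KMS-34, against 1.53, 1.61 and 1.45 in KMS-11 (log2 fold change -2.64, SE 0.09, adjusted p in limma = 3.6e-11). CCNE1, the partner gene, was higher in KMS-34 (0.50, adjusted p in limma = 7.1e-05). PRIM1, the catalytic subunit of primase, was 2.48-fold higher in KMS-34, with 0.30, 0.38 and 0.44 in KMS-34, against -0.89, -0.89 and -1.04 in KMS-11 (1.31, SE 0.07, adjusted p in limma = 4.1e-09). KIF20A was 2.38-fold higher in KMS-34 (1.25, SE 0.07), and none of these values overlapped between the lines.

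The helicase did not differ as a unit between the lines. MCM6 had 0.79, 0.87 and 0.65 in KMS-34, against -0.40, -0.46 and -0.57 in KMS-11 (log2 fold change 1.24, SE 0.07, adjusted p in limma = 4.8e-09). MCM4 had 0.69, 0.82 and 0.69 in KMS-34, against -0.27, -0.20 and -0.37 in KMS-11 (1.02, SE 0.07, adjusted p in limma = 2.4e-08). MCM7 (0.48) and MCM2 (0.47) were also higher in KMS-34, while MCM3 (-0.10, adjusted p in limma = 0.25) and MCM5 (0.02, adjusted p in limma = 0.90) did not pass. The helicase activators differed in both directions, with GINS2 higher in KMS-34 (0.73) and CDC45 (-0.66) and GINS1 (-0.35) lower.

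Among the mitotic genes lower in KMS-34, CENPE had -0.10, -0.04 and -0.17 in KMS-34, against 0.87, 0.90 and 0.95 in KMS-11 (log2 fold change -1.01, SE 0.07, adjusted p in limma = 4.0e-08). TOP2A, the topoisomerase that untangles chromosomes, had -0.13, 0.06 and -0.19 in KMS-34, against 0.80, 0.83 and 0.91 in KMS-11 (-0.94, SE 0.07, adjusted p in limma = 7.4e-08). CCNA2 had -0.31, -0.13 and -0.32 in KMS-34, against 0.64, 0.59 and 0.54 in KMS-11 (-0.84, SE 0.07, adjusted p in limma = 1.1e-07). CENPE and CCNA2, which fell in KMS-34/Cfz, were thus also lower in KMS-34 than in KMS-11. AURKA, the kinase Aurora A, had -0.50, -0.44 and -0.44 in KMS-34, against 0.27, 0.38 and 0.17 in KMS-11 (-0.73, SE 0.06, adjusted p in limma = 4.3e-07), and CCNB1 (-0.62) and BUB1B (-0.50) were lower as well. BUB1 ran the other way, with 0.30, 0.26 and 0.28 in KMS-34, against -0.54, -0.51 and -0.44 in KMS-11 (0.77, SE 0.06, adjusted p in limma = 1.7e-07), as did CDK1 (0.61) and FOXM1 (0.50).

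**Figure D4:**
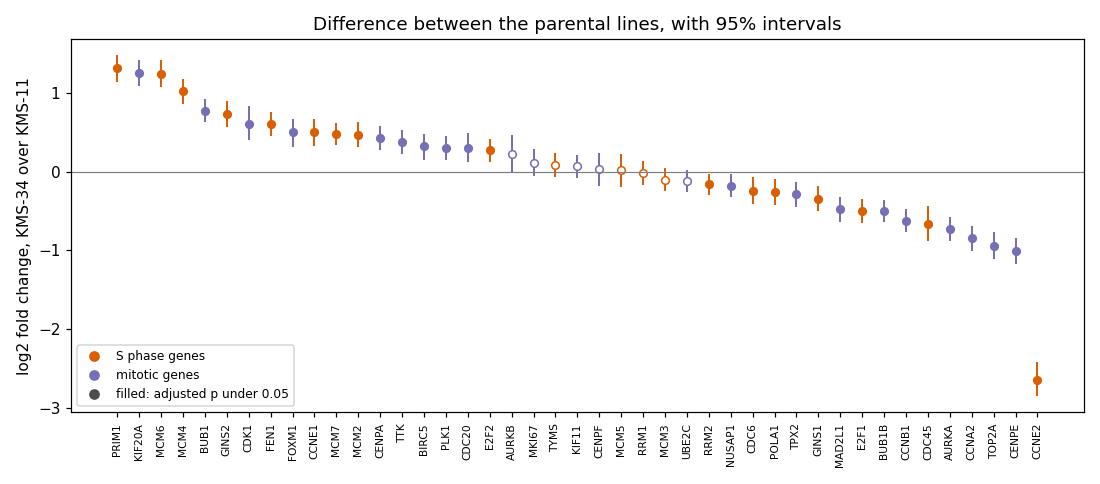
Log2 fold change of KMS-34 over KMS-11 (y axis) for each of the 43 members, ordered by value, with S phase genes in orange and mitotic genes in purple, bars for 95% intervals from limma and filled points for an adjusted p under 0.05. The values run from 1.31 for PRIM1 to -2.64 for CCNE2, and both colors occur on each side of 0.

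The 9 members that did not pass between the parental lines were MCM3, MCM5, TYMS, RRM1, MKI67, AURKB, KIF11, CENPF and UBE2C, with log2 fold changes of -0.12 to 0.23. MKI67, which encodes the Ki-67 antigen, gave 0.11 (95% interval -0.04 to 0.27), whereas its probe set of largest variance alone gave 0.58 (adjusted p in limma = 5.9e-05). AURKB passed without KMS-34 replicate 1 (0.30, adjusted p in limma = 0.042) or without KMS-34/Cfz replicate 1 (0.23, adjusted p in limma = 0.020). Of the other genes of these pathways, the regulator E2F7, a repressor of the E2F family, was lower in KMS-34 by a log2 fold change of -2.58, with -1.66, -2.10 and -1.80 in KMS-34, against 0.64, 0.79 and 0.75 in KMS-11 (adjusted p in limma = 8.1e-11). PTTG1, which encodes securin, and HMMR were higher in KMS-34 (1.70 and 1.62), whereas NDC80 of the kinetochore (-1.19) and ORC3 (-1.41) were lower.

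Genes next to the members were set beside them, as the median log2 fold change of the 5 nearest measured genes on each side. Around MCM7 this was 0.18 in KMS-34/Cfz against KMS-34 and 0.61 in KMS-34 against KMS-11, beside 0.36 and 0.48 for MCM7 itself. Around CENPE it was -0.18 and -0.22, beside -0.26 and -1.01 for CENPE. Of members not called in KMS-34/Cfz, E2F1 stood among neighbors at 0.21 and -0.41, beside its own 0.16 and -0.50. TTK stood among neighbors at 0.15 and 0.28, beside its own -0.07 and 0.38. For KIF11 the neighbors were at -0.20 and 0.59, beside its own -0.16 and 0.07. Members thus lay both near and away from their neighbors. For CCNE2, MCM6, BUB1, TPX2, E2F2 and CCNA2 the neighbors' median was between -0.01 and 0.10 in KMS-34/Cfz. The part of the surrounding region in these differences was not tested.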

How the data were processed

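Total RNA of KMS-11/Cfz, KMS-11, KMS-34/Cfz and KMS-34 cells was hybridized to Affymetrix Human Genome U133 Plus 2.0 arrays, and the deposited values are log2 intensities that the authors normalized with RMA (version and centring not given in the sources used here). The table holds 54613 probe sets from -7.75 to 8.64, and 99.99% have 3 to 9 of 12 values below 0. Because the values are centred, dim probe sets could not be filtered, and 0 control probe sets were present. The labels give 4% serum, a detail that the methods of the paper give differently.

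Probe sets naming 1 gene (41091) were averaged to 19775 genes, with symbols updated through RefSeq. All 12 arrays were fitted with 1 mean per group using limma version 3.58.1 and its moderated statistics, run in R 4.3.3, and p-values were two-sided and adjusted by Benjamini-Hochberg over all genes, or over all probe sets for single probe sets, at a threshold of 0.05. The script was tested on simulated data. The number of arrays limits the precision. Members and lists were chosen with earlier results of these data known. All members are named, with full statistics for at most 10 called per contrast and up to 4 genes of each other list. Alternatives were a fit per line, a replicate block, aligned medians, cyclic loess, array weights, the probe set of largest variance, a threshold of 0.01, and omission of each array or of 3 together. The markers of cell types and the promoter windows came from the array table and RefSeq. Python 3.11.15 with pandas 2.3.3 and matplotlib 3.10.9 made the tables and figures.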

Additional observations from a re-analysis of the deposited data

Results flagged for a closer look

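The resistant contrast of CDC6 differed between the lines by 0.41 on the log2 scale (KMS-34/Cfz over KMS-34 at 0.15, KMS-11/Cfz over KMS-11 at -0.26), and that of KIF20A by 0.38 (0.17 and -0.21), each by the interaction test in limma (adjusted p = 0.034 and 0.039). All 3 KMS-11/Cfz arrays lay below all KMS-11 arrays in both genes. In KMS-34/Cfz, all 3 arrays lay above KMS-34 for KIF20A, while for CDC6 the groups overlapped. Under cyclic loess scaling the difference of KIF20A was 0.21 (adjusted p in limma = 0.40). Over single probe sets, 203968_s_at of CDC6 passed the interaction test, whereas 203967_at of CDC6 and the probe set of KIF20A did not.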

How the results depend on the processing

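Alternatives were run for the 8 members called in KMS-34/Cfz, the 7 called in the mean of both lines, the 2 called in the interaction and 10 of the 34 called between the parental lines, and none of these values changed sign. The 10 members named with full statistics between the parental lines kept their calls in all 190 alternative values, and CCNE2 and MCM7 kept theirs in KMS-34/Cfz. Of 160 alternative values for the 8 members called in KMS-34/Cfz, 119 kept the call, as did 13 of 38 for the interaction. With each line fitted alone, 2 members rose and 1 fell for the KMS-11 derivative, while 2 rose and 0 fell in KMS-34/Cfz. With aligned medians, 1 fell in KMS-34/Cfz and 1 in the mean of both lines. Under cyclic loess, 2 rose in KMS-11/Cfz and 4 fell in KMS-34/Cfz. With array weights, 2 rose and 5 fell in KMS-11/Cfz, 14 rose and 1 fell in KMS-34/Cfz, 9 rose in the mean and 8 passed upward in the interaction. With the probe set of largest variance, 1 rose and 1 fell in KMS-11/Cfz, 0 fell in KMS-34/Cfz, 1 fell in the mean and 1 passed in the interaction. At a threshold of 0.01, 2 rose and 0 fell in KMS-34/Cfz, 2 rose and 0 fell in the mean and 0 passed in the interaction. Replicate 1 of KMS-34/Cfz, replicate 1 of KMS-34 and replicate 3 of KMS-11 were the 3 arrays left out together. In that fit, 1 fell in KMS-11/Cfz, 0 in KMS-34/Cfz and 0 in the mean. For KMS-34/Cfz, CENPE and CCNA2 lost their calls, and CDC6 (0.24, adjusted p in limma = 0.038) and TYMS (0.26, adjusted p in limma = 0.028) rose in addition. These counts are of members only. The share of all genes called under each alternative is not given, so a gain or loss of calls may not be particular to the members. The causes were not tested.

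Leaving out each array in turn, 0 to 2 rose and 0 to 1 fell in KMS-11/Cfz, 3 to 14 rose and 0 to 3 fell in KMS-34/Cfz, 3 to 10 rose and 0 to 2 fell in the mean, 0 to 5 passed upward in the interaction, and 18 to 19 were higher and 13 to 16 lower in KMS-34 than in KMS-11. The highest counts of rises in KMS-34/Cfz (14), in the mean (10) and in the interaction (5) came without KMS-34/Cfz replicate 1. This array was low in the members, so its omission favors such counts. Of all genes, 8.62% rose in KMS-34/Cfz without this array, against 5.4% with all arrays.

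Deviations of same-numbered arrays of a line from their group means correlated at r = -0.01 to 0.56, with 3 of 6 pairs over 0.1. The highest value was for replicate 1 of KMS-34 and KMS-34/Cfz, while KMS-34 replicate 2 and KMS-34/Cfz replicate 3, of different number, reached 0.44. Whether same-numbered arrays share more than a number is not stated, and these values do not settle it. With the replicate block, 6 members rose and 2 fell in KMS-34/Cfz, 0 and 0 in KMS-11/Cfz, 5 and 2 in the mean, and no call changed. The number of arrays limits the precision, and a signal over background could not be read from centred values.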
